A study of Rattus norvegicus with 4 samples.

Results

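The comparison described here set the 2 arrays titled as the second biological duplicate against the 2 titled as the first, and it used 4 of the 4 arrays of the series. Each array holds total RNA of primary cortical neurons from Sprague Dawley rat embryos at embryonic day 18, grown in culture, infected with pLL3.7 lentivirus made in 293T cells and collected 5 days after infection. Each side of the comparison has 1 array of cells given a control shRNA (labelled wild type) and 1 array of cells given PHF6shRNA-2 (labelled PHF6 knockdown), a single hairpin against the zinc finger protein PHF6 of the nucleus. The duplicate number is a replicate number and not a treatment. The labels do not say whether a number stands for a dissection, a litter or a culture, nor whether same-numbered arrays were infected or hybridised together, so a difference between cultures and a difference between processing runs cannot be told apart. P-values therefore speak only of these 4 arrays. They set a difference against the disagreement between the shRNAs and a variance estimated from all genes together.

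Cortex taken at this stage yields mostly young postmitotic neurons, together with radial glia, which are the dividing progenitors of the cortex. Radial glia make neurons first and astrocytes and oligodendrocyte precursors later, so a neuronal culture can carry a small and variable population that divides and turns glial. Neurons in culture also differ in how active they are, and firing induces the immediate early genes, which encode short-lived regulators such as NPAS4 and FOS. In total RNA of a mixed culture, fewer cells of a type and less RNA per cell cannot be told apart.

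Expression was read as intensity, the brightness of a probe set after the authors' normalization, and 17245 named genes were compared. A difference is the mean log2 intensity of the duplicate 2 arrays minus that of the duplicate 1 arrays, fitted in limma with the shRNA as a block and given with its standard error (SE), n = 2 arrays a side. Median intensity was 40.9 to 41.7 over the arrays. A background level, set at the 95th percentile of the 1272 measured genes for odorant and vomeronasal receptors, was 43.7 (control) and 42.6 (PHF6 shRNA) in duplicate 1, and 34.7 and 36.3 in duplicate 2. Between 9362 and 10624 genes exceeded it, with more in duplicate 2, and so did 20 or 21 of 21 pan-neuronal markers on each array. Phf6 itself was read at 31.3 to 34.4 intensity units, below background on every array, so its probe set does not check the labels.

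Duplicate 2 had higher glial, progenitor and cell-division transcripts and lower transcripts of a small set of neuronal activity genes, under both shRNAs. Of the 17245 genes, 546 (3.17%) were higher and 138 (0.8%) were lower in duplicate 2 at an adjusted p under 0.05 in limma, 684 (3.97%) in all. The sign was the same under control and PHF6 shRNA for all 684, which the fit favours, since its only residual is the disagreement between the shRNAs. Of all genes, 11347 (65.8%) had the same sign. In 637 of the 684 the duplicate 2 arrays did not overlap the duplicate 1 arrays. Over all genes, 19.7% were higher and 24.6% were lower without overlap. Among the 684, 46 were at least 2-fold higher and 4 at least 2-fold lower. Of the 684, 67 were above background on fewer than 2 arrays. The smallest difference that passed was 0.35 log2 units, and the median SE was 0.08. Without the shRNA block limma called 0 genes, with 1887 at an unadjusted p under 0.05. Leaving out any 1 array as well as the block also gave 0, with 975 to 1745 genes at an unadjusted p under 0.05. The fit rests on 1 residual degree of freedom per gene, and an exact test of 2 arrays against 2 cannot give a p below 0.333.

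**Figure D1:**
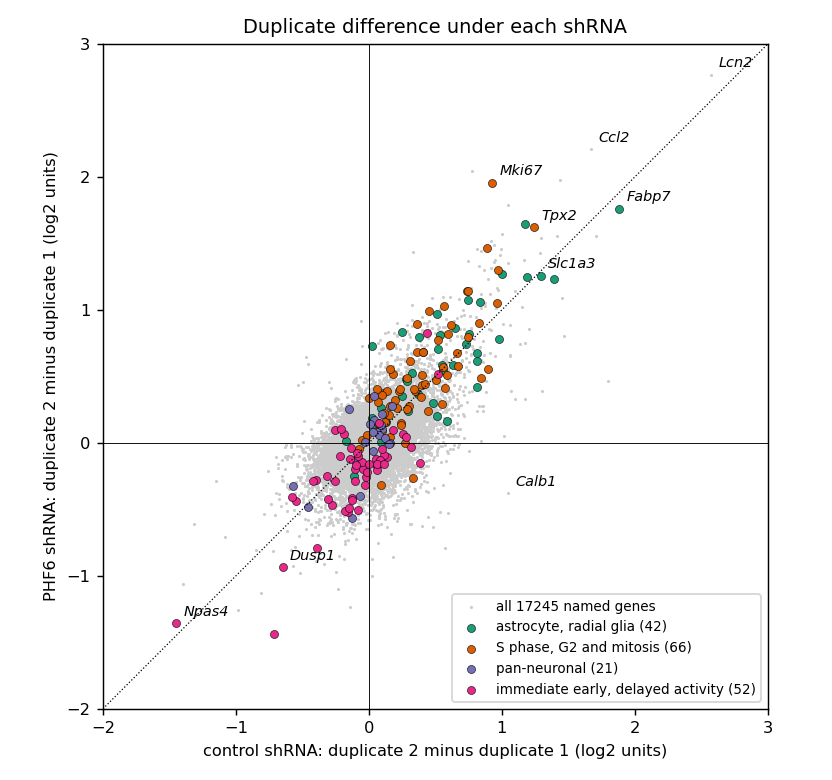
Each point is 1 gene, placed by its difference between duplicates (log2 units) under control shRNA on the horizontal axis and under PHF6 shRNA on the vertical axis, with members of 4 sets of lists coloured. Lcn2, Ccl2, Fabp7, Slc1a3, Mki67 and Tpx2 lie far above 0 on both axes, Npas4 and Dusp1 far below, and Calb1 has opposite signs.

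Astrocyte transcripts were higher in duplicate 2. Of 25 measured astrocyte markers, 17 were higher and 0 lower, with a median difference of 0.62 log2 units, where 3.17% of all genes were higher and the median of all genes was -0.01. The arrays of the duplicates did not overlap for 21 of the 25, all higher in duplicate 2, against 19.7% of all genes higher without overlap and 24.6% lower. Because the background level was lower in duplicate 2, members were also counted, as a choice made after seeing the data, above 1 common level, the highest background of the 4 arrays (43.7 units). Above it lay 18 and 19 astrocyte markers on the duplicate 1 arrays and 22 and 23 on the duplicate 2 arrays, and 9362 to 9442 of all genes on each array. Their summed intensity was 2498 and 3035 in duplicate 1 and 4391 and 5174 in duplicate 2.

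The differences of the astrocyte genes that passed ran from 0.37 (Id3) to 1.41 (Ndrg2). Slc1a3, the glutamate transporter GLAST of astrocytes and radial glia, was read at 254 (control) and 278 (PHF6 shRNA) intensity units in duplicate 1 and at 622 and 665 in duplicate 2. The groups lay far apart, and the difference was 1.28 (SE 0.08, adjusted p = 0.000579, limma). Slc6a11, the GABA transporter GAT-3 of astrocytes, was read at 173 and 190 in duplicate 1 and 453 and 449 in duplicate 2, a difference of 1.31 (SE 0.08, adjusted p = 0.000579). Ndrg2, a cytoplasmic protein used as an astrocyte marker, went from 156 and 147 to 352 and 460, a difference of 1.41 (SE 0.11, adjusted p = 0.00144). In each of these genes both duplicate 2 arrays stood above both duplicate 1 arrays. F3, which encodes tissue factor, differed by 1.14, the secreted protein gene Sparcl1 by 0.88, the hyaluronan receptor gene Cd44 by 0.79, the lipoprotein gene Apoe by 0.74 and the glial transcription factor gene Sox9 by 0.74. Some markers of more mature astrocytes were near background. Gfap, the astrocyte intermediate filament, was above background only in duplicate 2, with 30.0 and 34.6 units in duplicate 1 and 52.7 and 46.3 in duplicate 2 (difference 0.62, SE 0.10, adjusted p = 0.0217). The water channel gene Aqp4 read 41.1 and 40.1, then 48.8 and 71.5 (difference 0.54, SE 0.13, adjusted p = 0.0658), which did not pass. The glutamate transporter gene Slc1a2 (0.38), Aldoc (0.36), S100b (0.26) and Clu (0.05) did not pass either. In Slc1a2, Aldoc and Clu the arrays of the duplicates overlapped.

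Radial glia and progenitor genes showed the same direction. Of 17 measured, 9 were higher and 0 lower (median 0.39), against 3.17% and 0.8% of all genes. Without overlap, 13 were higher, against 19.7% of all genes. Fabp7, the brain lipid-binding protein of radial glia, had the largest difference of all glial list members. It was read at 223 and 259 in duplicate 1 and at 821 and 880 in duplicate 2, a difference of 1.82 (SE 0.08, adjusted p = 0.000184, limma), or 3.54-fold. Vim, the intermediate filament vimentin of radial glia and other non-neuronal cells, read 1252 and 1295 units against 2102 and 2726 (difference 0.91, SE 0.10, adjusted p = 0.00365). Ptprz1, a receptor-type phosphatase of radial glia, read 577 and 531 against 1028 and 1109 (difference 0.95, SE 0.09, adjusted p = 0.00227). The arrays of duplicate 2 lay above those of duplicate 1 in all 3 genes. Dbi, which encodes an acyl-CoA-binding protein, differed by 1.22, the receptor gene Notch1 by 0.61, and the transcription factor genes Lhx2 and Sox2 by 0.57 and 0.54. Nes (nestin, 0.42) and the Notch target Hes1 (0.39) passed, but their readings were below 43.7 units on all 4 arrays and above background only against the lower level of duplicate 2. Pax6, the radial glial transcription factor, reached 0.38 with an adjusted p of 0.0508. The Notch target Hes5 (0.09) and the neurogenic factor gene Neurog2 (-0.18) did not pass.

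The oligodendrocyte lineage list did not follow as a whole. Only Olig1 and Sox8, both transcription factor genes of the lineage, were higher among 19 measured (10.5%, against 3.17% of all genes). The arrays did not overlap for 8 that were higher (42.1%, against 19.7% of all genes) and 4 that were lower (21.05%, against 24.6%). The median difference was -0.02. As 8 of the 19 were above background on 2 or more arrays, it rests mostly on genes at background. On each array, 4 exceeded background in duplicate 1 and 8 in duplicate 2, where that level was lower. Olig1 was read at 49.9 and 38.8 in duplicate 1 and at 133 and 114 in duplicate 2 (difference 1.49, SE 0.08, adjusted p = 0.000479, limma). Its PHF6 shRNA reading in duplicate 1 was below background, so the size of that difference is uncertain. Its relative Olig2 read 75.0 and 70.3 against 78.3 and 88.6 (difference 0.20, adjusted p = 0.273). The precursor marker Pdgfra (0.09) and the myelin gene Mog (-0.26) were below background on all 4 arrays, and neither passed.

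**Figure D2:**
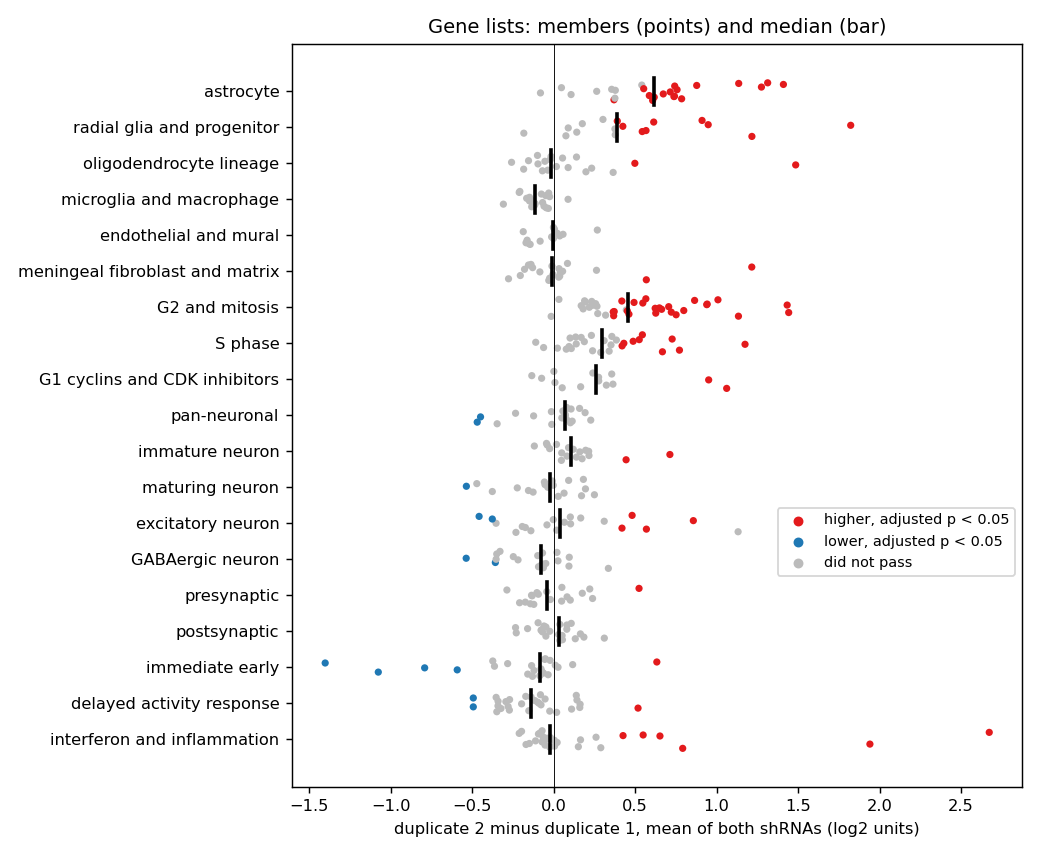
Each row is a gene list and each point a measured member, placed by its difference between duplicates (log2 units, mean of both shRNAs) and coloured by whether it passed an adjusted p of 0.05; bars mark list medians. The astrocyte, radial glia, G2 and mitosis and S phase rows lie to the right of 0, with medians of 0.62, 0.39, 0.46 and 0.30, while the neuronal rows centre near 0.

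Markers of other non-neuronal cells that could be in such a culture were mostly at background. Of 59 measured, 2 were higher (3.39%) and 0 lower, against 3.17% and 0.8% of all genes. None of 19 microglia and macrophage markers passed (median -0.11). Of the 19, 18 were lower by any amount, and 14 were lower without overlap (73.7%, against 24.6% of all genes). Only 3 of the 19 were above background on 2 or more arrays. The receptor genes that set the background were also lower in duplicate 2. Their median was 4.27 (control) and 4.25 (PHF6 shRNA) log2 units in duplicate 1, and 4.11 and 4.15 in duplicate 2. Whether the microglia list differed beyond that shift was not tested. Aif1, a microglial calcium-binding protein, was read at 19.6 to 20.4 units, below background on each array, and 3 to 6 of the 19 exceeded background per array. Above the common level lay 3 and 2 of them in duplicate 1 and 0 on each array of duplicate 2. Their summed intensity was 580 and 579 in duplicate 1 and 526 and 542 in duplicate 2. None of 14 endothelial and mural markers passed (median -0.01), with 0 to 4 above background per array and sums of 414 and 441 against 412 and 425. Hbb, the red-cell globin gene, differed by -0.04, and none of 6 erythroid genes passed. Among 20 meningeal fibroblast and matrix genes, Timp1, an inhibitor of matrix proteases, was higher (1.22, SE 0.12), as was Igfbp2, an insulin-like growth factor binding protein (0.57, SE 0.09). The collagen genes of that list ranged from Col4a2 at -0.28, whose dimmer probe set gave 0.11, to Col1a2 at 0.04, and none passed. The list's summed intensity was 1078 and 1126 in duplicate 1 and 1096 and 1240 in duplicate 2. Over 3 other scalings of the arrays the near-zero medians of the oligodendrocyte, endothelial and meningeal lists turned to between 0.00 and 0.03. That of the microglia list was between -0.09 and -0.06. Those of the astrocyte and radial glia lists stayed between 0.63 and 0.64 and between 0.41 and 0.43.

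Genes of cell division were higher in duplicate 2. Of 38 measured genes of G2 and mitosis, 24 were higher and 0 lower (median 0.46), against 3.17% and 0.8% of all genes. Without overlap, 36 were higher, against 19.7% of all genes. Counts above a common level of 43.7 intensity units, the highest background of the 4 arrays, were also taken. They were 12 and 10 of the 38 on the duplicate 1 arrays and 19 on each duplicate 2 array. Mki67, which encodes the proliferation antigen Ki-67, was read at 108 (control) and 60.7 (PHF6 shRNA) in duplicate 1 and at 205 and 236 in duplicate 2. The PHF6 shRNA array of duplicate 1 was the lowest of the 4, so its difference of 1.44 had a wide SE of 0.20 (adjusted p = 0.01, limma). Tpx2, a spindle assembly factor, read 45.0 and 34.2 against 107 and 105 (difference 1.43, SE 0.10, adjusted p = 0.00103). Top2a, the topoisomerase of dividing cells, read 72.6 and 58.9 against 142 and 145 (difference 1.13, SE 0.10, adjusted p = 0.00176). Plk1, a mitotic kinase, read 64.4 and 63.1 against 126 and 131 (difference 1.01, SE 0.08, adjusted p = 0.0014). The 4 genes were 2.01- to 2.72-fold higher in duplicate 2, with no overlap between duplicates. Smaller differences were found for the anaphase activator gene Cdc20 (0.80), cyclin B1 gene Ccnb1 (0.75), the central spindle gene Prc1 (0.71) and the kinase gene Cdk1 (0.63). Ccnb1 and Cdk1 were below background on both duplicate 1 arrays, and Tpx2 on the PHF6 shRNA array of duplicate 1. The sizes of these differences are uncertain. Kif4a, Bub1b and Ttk passed although they exceeded background on no array, and Aurka (-0.01) and Cdca3 (0.03), also below background throughout, did not.

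Many genes of this group are known to share promoter elements, a CCAAT box bound by NF-Y and the cell cycle homology region (CHR) bound by complexes that repress them in cells that do not divide. The 120 bases before the start of Cdk1, Cdc20, Top2a and Prc1, all of which passed, are shown because they hold both elements. They come from RefSeq in the GRCr8 build, at chr20:19265173-19265292 (+ strand), chr5:137255800-137255919 (- strand), chr10:84473094-84473213 (- strand) and chr1:143659361-143659480 (+ strand). Capitals mark CCAAT and TTTGAA on either strand, so that ATTGG and TTCAAA are their reverse complements.
Cdk1: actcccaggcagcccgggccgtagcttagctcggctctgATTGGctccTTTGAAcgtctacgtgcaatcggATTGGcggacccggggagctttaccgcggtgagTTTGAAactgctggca
Cdc20: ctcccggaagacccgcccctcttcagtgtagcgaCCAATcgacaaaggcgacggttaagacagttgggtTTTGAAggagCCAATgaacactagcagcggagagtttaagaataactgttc
Top2a: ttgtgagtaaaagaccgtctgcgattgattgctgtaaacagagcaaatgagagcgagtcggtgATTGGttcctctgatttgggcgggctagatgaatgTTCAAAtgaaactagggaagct
Prc1: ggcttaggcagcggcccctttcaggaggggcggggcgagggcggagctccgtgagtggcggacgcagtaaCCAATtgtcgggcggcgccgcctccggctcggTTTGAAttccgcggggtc
In Cdk1, Top2a and Prc1 a CHR match starts 16, 22 and 18 bases before the annotated start, with a CCAAT box 49, 57 and 50 bases before it. Over the 250 bases before each start, both strands, 26 of the 32 measured genes of G2 and mitosis with a promoter entry held CCAAT, 15 held TTTGAA and 15 held both. Among the 21 of them that were higher, the counts were 18, 9 and 9. Over all 14117 promoters of named genes the shares were 35.0%, 14.0% and 5.17%. Neither motif contains the other. For S phase genes, 14 of 22 promoters held CCAAT and 1 held TTTGAA. A match describes the letters only and is not evidence of binding.

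S phase genes were higher in duplicate 2 in 9 of 28 cases and lower in 0, against 3.17% and 0.8% of all genes. Their median was 0.30, and 19 were higher without overlap, against 19.7% of all genes. Rrm2, a subunit of the ribonucleotide reductase that supplies deoxynucleotides, read 69.9 and 46.7 in duplicate 1 and 129 and 129 in duplicate 2 (difference 1.17, SE 0.13, adjusted p = 0.00405, limma). Pcna, the sliding clamp of replication, read 127 and 144 against 236 and 213 (difference 0.73, SE 0.10, adjusted p = 0.00892). Of the replicative helicase genes, Mcm7 (0.77), Mcm2 (0.67) and Mcm6 (0.43) passed, and Mcm5 (0.36), Mcm3 (0.31) and Mcm4 (-0.06) did not. Mcm4 read 394 and 319 in duplicate 1 and 374 and 309 in duplicate 2. Mcm3 and Mcm5, like Mcm2, Mcm6 and Mcm7, were higher in duplicate 2 without overlap although they missed the threshold. Mcm4, which read far brighter than the other helicase genes, did not share that direction.

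Among 14 G1 cyclins and CDK inhibitors, the drivers Ccnd1 and Cdk6 passed, both higher (14.3%, against 3.17% of all genes). The list median was 0.26, and 8 of the 14 were higher without overlap, against 19.7% of all genes. Ccnd1, which encodes cyclin D1, read 165 and 178 in duplicate 1 and 321 and 397 in duplicate 2 (difference 1.06, SE 0.08, adjusted p = 0.0014, limma). Cdk6, its kinase partner, read 48.2 and 47.9 against 88.2 and 97.9 (difference 0.95, SE 0.08, adjusted p = 0.00186). The CDK inhibitor genes Cdkn1a (0.17) and Cdkn1b (-0.13) did not pass, and neither did Ccnd2 (0.28) or Cdk4 (0.24).

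**Figure D3:**
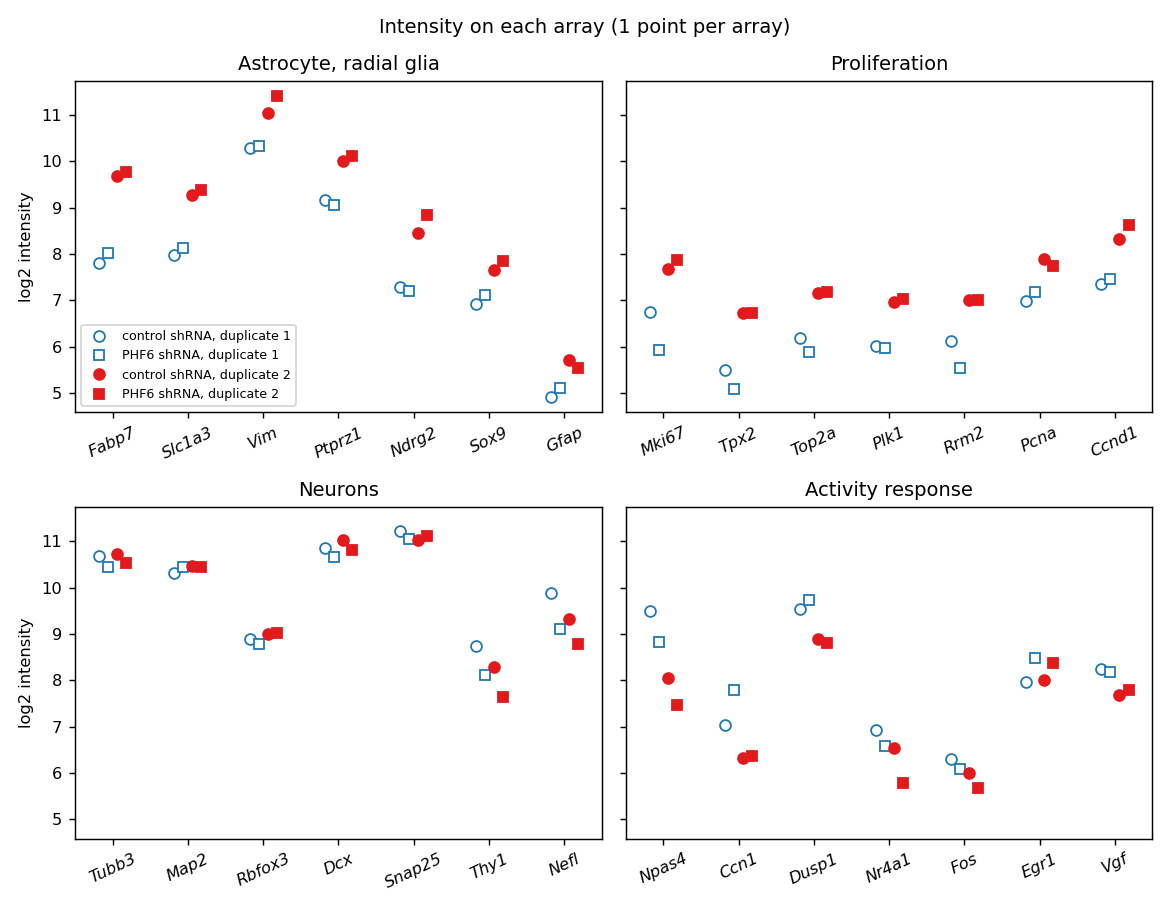
Log2 intensity of 7 genes of each group on each of the 4 arrays, with open symbols for duplicate 1, filled symbols for duplicate 2, circles for control shRNA and squares for PHF6 shRNA. The astrocyte, radial glia and proliferation genes are higher on both filled symbols, the readings of Tubb3, Map2 and Snap25 lie close together, and Npas4, Ccn1, Dusp1 and Nr4a1 are lower on both filled symbols.

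Several general neuronal markers differed little between the duplicates, while some genes of the neuronal lists passed in each direction. Of 138 genes on 7 neuronal lists, 7 were higher and 7 lower, 5.07% each way against 3.17% higher and 0.8% lower of all genes, and the median difference was 0.02. Tubb3, the neuronal tubulin, was read at 1659 (control) and 1399 (PHF6 shRNA) in duplicate 1 and at 1692 and 1484 in duplicate 2, a difference of 0.06 with a 95% interval of -0.12 to 0.24. Map2, a dendritic microtubule protein, differed by 0.08 (interval -0.11 to 0.27), and Rbfox3, the neuronal nuclear antigen NeuN, by 0.16 (interval -0.03 to 0.34). Each interval leaves out differences as large as those of Fabp7 or Slc1a3. The synaptic vesicle fusion gene Snap25 differed by -0.05 (interval -0.26 to 0.16), and Dcx, the doublecortin gene of young neurons, by 0.16 (interval -0.02 to 0.34). None of 23 postsynaptic genes passed (median 0.03), and of 19 presynaptic genes only Syt4 (0.52) did, while 0 or 1 passed under 3 other scalings.

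A few genes of neuronal subtypes and maturation did differ, where 3.17% of all genes were higher and 0.8% lower. Of 21 pan-neuronal genes, Thy1, a surface glycoprotein of neurons, and Nefl, the light neurofilament subunit, were lower. Thy1 read 430 and 279 in duplicate 1 and 314 and 199 in duplicate 2 (difference -0.47, SE 0.08, adjusted p = 0.0205, limma). Nefl read 949 and 555 against 638 and 443 (difference -0.45, SE 0.09, adjusted p = 0.0376). In both, the control arrays were above the PHF6 shRNA arrays, so the duplicates overlapped although the direction was the same under each shRNA. Kcnc2, the potassium channel Kv3.2 of fast-spiking cells, was lower (70.8 and 65.0 against 47.8 and 45.8, difference -0.54, SE 0.08, adjusted p = 0.0123), 1 of 18 genes of maturing neurons. Of 18 immature neuron genes, the guidance gene Draxin (0.71) and the transcription factor gene Sox11 (0.44) were higher.

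Excitatory neuron genes moved both ways. Of 20, 4 were higher (Rorb, Neurod1, Lmo4 and Cux1) and 2 lower (Slc17a7 and Tle4), against 3.17% and 0.8% of all genes. The list median was 0.04. Rorb, a nuclear receptor of layer 4 neurons, read 164 and 254 in duplicate 1 and 342 and 400 in duplicate 2 (difference 0.86, SE 0.11, adjusted p = 0.0063, limma). Slc17a7, the vesicular glutamate transporter VGLUT1, read 1009 and 1141 against 717 and 852 (difference -0.46, SE 0.08, adjusted p = 0.0229). Tle4, a corepressor of deep-layer neurons, differed by -0.38 (SE 0.08, adjusted p = 0.046). Nrgn, the postsynaptic protein neurogranin, read 71.4 and 243 against 249 and 335, and its difference of 1.13 had an SE of 0.25 and did not pass (adjusted p = 0.0522). Its control array of duplicate 1 was far below the other 3.

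Of 19 GABAergic neuron genes, Lhx6 and Gad1 were lower (10.5%, against 0.8% of all genes) and 0 higher, with a median of -0.08. Lhx6, a transcription factor of interneurons from the medial ganglionic eminence, read 74.7 and 75.7 in duplicate 1 and 48.5 and 55.4 in duplicate 2 (difference -0.54, SE 0.08, adjusted p = 0.0159, limma). Gad1, a GABA-synthesising enzyme, read 253 and 277 against 193 and 221 (difference -0.36, SE 0.08, adjusted p = 0.0487). The second such enzyme, Gad2 (-0.33, adjusted p = 0.0675), and the neuropeptides Npy (-0.35, adjusted p = 0.0507) and Sst (-0.35, adjusted p = 0.0566) did not pass. The duplicates did not overlap in these 3 genes. Across 3 other scalings of the arrays the count of lower genes on this list was 1 to 5 and the median -0.12 to -0.06.

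Immediate early genes were lower in duplicate 2 in 4 of 23 cases and higher in 1, against 0.8% and 3.17% of all genes, with a list median of -0.08. Npas4, an activity-dependent transcription factor of neurons, had the lowest difference of all named genes. It was read at 727 (control) and 455 (PHF6 shRNA) in duplicate 1 and at 266 and 178 in duplicate 2, a difference of -1.40 (SE 0.08, adjusted p = 0.000492, limma). Both duplicate 2 arrays were below both duplicate 1 arrays, and within each duplicate the PHF6 shRNA array was the lower. Ccn1, a secreted matrix protein induced by growth signals, read 131 and 222 against 79.7 and 81.8 (difference -1.08, SE 0.15, adjusted p = 0.0107). Dusp1, a phosphatase that turns off MAP kinases, read 746 and 852 against 476 and 447 (difference -0.79, SE 0.09, adjusted p = 0.00495). Nr4a1, an orphan nuclear receptor, read 121 and 96.0 against 92.8 and 55.3 (difference -0.59, SE 0.11, adjusted p = 0.0264). These 4 genes were separated without overlap, by very different amounts. Fos just missed the threshold, with 79.3 and 67.9 against 64.2 and 50.7 (difference -0.36, SE 0.08, adjusted p = 0.0503). Egr1, a zinc finger factor of the same response, read 249 and 358 against 258 and 329 (difference -0.03, interval -0.23 to 0.16), and Junb (-0.07) and Jun (0.12) did not pass. Arc was below background on all 4 arrays. Fosl1, a FOS family member, was the gene of the list that was higher (0.63, SE 0.10, adjusted p = 0.0199).

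One element through which neuronal activity acts is the cyclic AMP response element (CRE), TGACGTCA, its own reverse complement. The Dusp1 promoter is shown because it alone among the 5 immediate early genes that passed holds this element in the 250 bases before its start. The stretch is RefSeq GRCr8 chr10:17184713-17184772 (+ strand), with the CRE in capitals starting 124 bases before the annotated start.
Dusp1: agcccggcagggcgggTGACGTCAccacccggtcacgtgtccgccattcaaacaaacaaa
Of 15 measured immediate early genes with a promoter entry, 3 held a CRE, against 2.21% of all 14117 promoters. No match in these letters says nothing about elements farther away.

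Of 29 delayed activity genes, Vgf and Gpr3 were lower and Cartpt was higher (median -0.14), where 0.8% of all genes were lower and 3.17% higher. On this list 14 were lower without overlap (48.3%), against 24.6% of all genes and 9 of the 23 immediate early genes (39.1%). The lists were not tested against each other. Vgf, a secreted neuropeptide precursor, read 305 and 292 in duplicate 1 and 204 and 220 in duplicate 2 (difference -0.49, SE 0.08, adjusted p = 0.0216, limma). Gpr3, a receptor that raises cyclic AMP, differed by -0.49 (SE 0.08, adjusted p = 0.0191), and Cartpt, the CART neuropeptide precursor, by 0.52 (SE 0.08, adjusted p = 0.0135). In Gpr3 and Cartpt the duplicates overlapped, although the direction was the same under each shRNA. Bdnf, the neurotrophin gene, read 80.5 and 98.0 against 72.1 and 68.2 (difference -0.34, SE 0.10, adjusted p = 0.11) and did not pass. The counts of lower genes were 4 to 6 for the immediate early list and 2 to 6 for the delayed list over 3 other scalings, and the higher count was 1 in each.

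A minority of the inflammation genes differed, some by large amounts, and most of the list was dim. Of 28 interferon and inflammation genes 6 were higher (21.4%) and 0 lower, against 3.17% and 0.8% of all genes. Only 9 of the 28 were above background on 2 or more arrays, and 5 to 10 exceeded it per array. The list median of -0.02 therefore rests mostly on genes at background. Lcn2, a siderophore-binding lipocalin made by reactive glia, had the largest difference of all named genes. It was read at 37.0 (control) and 80.5 (PHF6 shRNA) in duplicate 1 and at 221 and 549 in duplicate 2, a difference of 2.67 (SE 0.08, adjusted p = 2.92e-05, limma). The control array of duplicate 1 was below its background level for Lcn2, so the size of the difference is uncertain. Ccl2, a chemokine that draws monocytes, read 99.2 and 121 against 317 and 557 (difference 1.94, SE 0.12, adjusted p = 0.000579). In both genes the PHF6 shRNA array was the higher within each duplicate. B2m (0.79), the light chain of MHC class I, Vcam1 (0.65), an adhesion molecule, Nfkbia (0.55), the NF-kB inhibitor, and Gbp2 (0.43), a guanylate-binding protein, completed the 6. The interferon-induced genes Ifit1, Ifit2, Ifit3, Mx1, Isg15 and Irf7, all below background on all arrays, did not pass.

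Genes of general cell state gave calls on some lists only, where 3.17% of all genes were higher and 0.8% lower. None of 24 ribosomal protein genes, 28 nuclear genes of mitochondrial respiration, 17 cholesterol synthesis genes and 16 p53 targets passed, with medians of 0.08, -0.02, 0.06 and 0.06. Of 21 genes of ER stress and ATF4, the serine synthesis genes Psat1 (0.73) and Phgdh (0.49) were higher (9.52%), and Atf4 itself (-0.24) did not pass. Of 16 heat shock and oxidative stress genes, 3 were higher (18.75%), the metallothionein gene Mt3 (0.78) and, for glutathione supply, Slc7a11 (0.76) and Gclm (0.50). Slc7a11 also stands on the astrocyte list. Of 20 hypoxia and glycolysis genes, Egln3 (0.60) and Pfkfb3 (0.59) were higher.

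The 12 highest that met the naming rule were Lcn2, Ccl2, Fabp7, Erbin, Slc15a2, Olig1, Mki67, Zfp36l1, Tpx2, Egfr, Pon2 and Tagln2. Slc15a2, the peptide transporter PEPT2 of astrocytes, read 50.7 and 53.5 in duplicate 1 and 166 and 158 in duplicate 2 (difference 1.63, SE 0.08, adjusted p = 0.000327, limma). Egfr, the EGF receptor of late progenitors, read 66.4 and 52.1 against 163 and 152 (difference 1.42, SE 0.09, adjusted p = 0.000579). Erbin, a scaffold that binds the ERBB2 receptor, read 29.7 and 24.8 against 80.4 and 97.6 (difference 1.71, SE 0.12, adjusted p = 0.00103). These were separated without overlap and, for Erbin, lay below background in duplicate 1. Tagln2 had a difference of 1.41 with a wide SE of 0.24, since its PHF6 shRNA array of duplicate 2 read 127 and the control array 58.9. Pon2 differed by 1.42, but a dimmer probe set of the same gene differed by -0.06, so its value is uncertain.

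The 12 lowest by the same rule were Npas4, 4930488N24Rikl, Gipr, Ccn1, Lynx1, Smokxl2, Rasgrp1, Dusp1, Cntnap1, Gpr22, Elovl7 and Gpr63. Gipr, the receptor of the incretin GIP, read 235 and 282 in duplicate 1 and 119 and 118 in duplicate 2 (difference -1.12, SE 0.09, adjusted p = 0.00144, limma). Lynx1, a brake on nicotinic acetylcholine receptors, read 147 and 126 against 83.6 and 57.6 (difference -0.97, SE 0.10, adjusted p = 0.00282). Rasgrp1, a calcium and lipid-responsive activator of RAS, read 141 and 155 against 78.3 and 88.5 (difference -0.83, SE 0.08, adjusted p = 0.00232). All of these were separated without overlap. Cntnap1, an axonal protein of the paranode, differed by -0.77, and the orphan receptor genes Gpr22 and Gpr63 by -0.75 and -0.67. 4930488N24Rikl and Smokxl2 have several probe sets that could share targets, and their values are uncertain.

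The duplicates also differed in a way that depended on brightness. When the 17245 genes were split into 4 equal bins by mean intensity, the median difference was -0.05 and -0.04 in the 2 dimmer bins and 0.05 and 0.06 in the 2 brighter. Of the 546 higher genes, 285 lay in the third bin and 162 in the brightest. The background level was also lower in duplicate 2, and its part in the differences above was not tested.

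**Figure D4:**
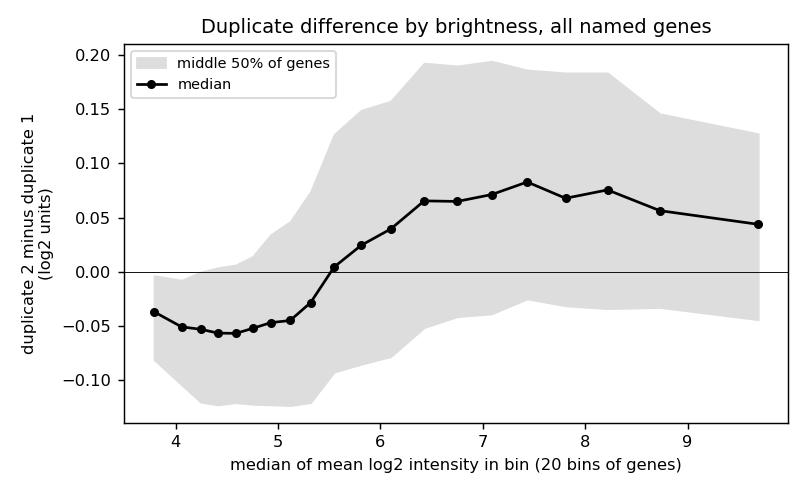
Median difference between duplicates (log2 units, line) and the middle 50% of genes (grey) in 20 bins of the 17245 named genes ordered by mean log2 intensity. The line lies below 0 for dim genes and above 0 for bright genes.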

How the data were processed

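The 4 arrays are 1-colour Affymetrix whole-transcript arrays, all used. For each probe set the authors deposited an intensity. RMA produced it, per the submitters' processing notes, a method that subtracts background, equalises arrays by quantiles and shrinks the differences of dim probe sets (version not given in the sources used here). Intensities spanned 8.57 to 6121, which is a linear scale, and were turned into log2. Of 29214 rows, 18644 carry 1 gene symbol, 962 several and 9608 none; 18460 were matched to RefSeq (GRCr8) by gene ID. Of the 17245 genes, the 879 with several probe sets were read from the brightest one. Of 634 list genes 556 were measured; Y-linked genes and Xist were not analysed here.

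The duplicates' arrays were set against each other in limma 3.58.1 (R 4.3.3) by a 2-sided moderated test from eBayes, with shRNA as a block and a prior of 6.77 degrees of freedom, with Benjamini-Hochberg adjustment over the 17245 genes and a threshold of 0.05. Intervals are 95% and from the same fit. The interaction of duplicate and shRNA has no residual and no test. The number of arrays limits the precision. The fit was tested on simulated data, where the share of false calls varied between runs and was on average above the nominal threshold. The members and lists were chosen with earlier results of these data known, so the counts are no independent support. Named genes were the 12 highest and 12 lowest differences among genes past the threshold with the same sign under both shRNAs, no overlap and both arrays of the higher duplicate above background (without symbols that begin with LOC, AABR, Olr, Vom, Mir, Snor, or RGD plus a digit), up to 4 members of each list by smallest p, every list member past the threshold, and a fixed set of markers. Other list members were added after their values were seen. Alternatives were no block, leaving out each array, 3 scalings, an offset of 32 before log2, filters, other priors, the mean of probe sets, all rows, limma's treat and an adjusted p under 0.10.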

Additional observations from a re-analysis of the deposited data

Results flagged for a closer look

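Calb1, the gene of the calcium-binding protein calbindin, had a difference of opposite sign under the 2 shRNAs. Duplicate 2 minus duplicate 1 was 1.05 log2 units under control shRNA and -0.38 under PHF6 shRNA. Its intensities were 45.9 (control) and 202 (PHF6 shRNA) in duplicate 1 and 94.8 and 156 in duplicate 2, so the control array of duplicate 1 stood lowest. Each value compares 1 array with 1 array, and the difference between them was not tested.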

How the results depend on the processing

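The 114 named genes past the threshold, of 181 named, kept their sign under the alternative scalings, offsets, filters, priors and probe set means in which they were measured. Leaving out an array leaves the difference under the other shRNA, a sign shared by all 684, and single rows of a gene were not compared by sign. Against 684 in limma, the count past the threshold was 0 with no shRNA block (1887 at an unadjusted p under 0.05, smallest adjusted p 0.12) and 0 when any 1 array was left out, in fits without the block (range 0 to 0, with 975 to 1745 genes at an unadjusted p under 0.05 and smallest adjusted p of 0.26 to 0.67). An offset of 32 before log2 gave 0 (3063 at an unadjusted p under 0.05, smallest adjusted p 0.14), with a prior of 2.32 degrees of freedom against 6.77. With that offset and an intensity trend in the prior, chosen after seeing the data, it was 1441, of which 1440 had the same direction under both shRNAs. A prior with an intensity trend gave 1214, all 29214 rows 367, limma's treat against a 1.2-fold change 114 (106 higher, 8 lower) and an adjusted p under 0.10 gave 1423. A further quantile normalization gave 775, centring on the median 599 and cyclic loess 796, sharing 605, 597 and 618 with the 684, and filters, a robust prior and the mean of probe sets gave 688 to 900. In the comparison of PHF6 with control shRNA, limma called 0 genes without the replicate block (1862 at an unadjusted p under 0.05) and 909 with the replicate block, 99 of them also among the 684; across the 17245 genes the within-shRNA differences of the duplicates correlated at 0.571. Genes below background are limited by their dim signal, and 67 of the 684 were above it on fewer than 2 arrays.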

Other observations

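The following genes outside the lists were higher in duplicate 2. They were picked after their values were seen and stand for no group. Gatm, an enzyme of creatine synthesis, read 125 (control) and 117 (PHF6 shRNA) in duplicate 1 and 250 and 322 in duplicate 2, a difference of 1.23 (SE 0.11, adjusted p = 0.00227, limma). Has2, which makes hyaluronan, the ligand of the CD44 receptor, read 69.4 and 65.0 against 134 and 169 (difference 1.16, SE 0.11, adjusted p = 0.00232). Pdpn, the membrane glycoprotein podoplanin, differed by 1.08. The astrocyte and progenitor transcription factor genes Rfx4 and Zbtb20 differed by 1.12 and 1.06, and Gabrg1, a GABA-A receptor subunit, by 1.09. Pttg1, securin of the mitotic spindle checkpoint, read 66.0 and 54.0 against 132 and 161 (difference 1.29, SE 0.13, adjusted p = 0.00292). The arrays of the duplicates did not overlap in any of these 7 genes.

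Other genes outside the lists were lower, picked in the same way. Acan, which encodes aggrecan of perineuronal nets, read 255 and 455 in duplicate 1 and 197 and 250 in duplicate 2 (difference -0.62, SE 0.12, adjusted p = 0.032, limma). Chrm1, a muscarinic acetylcholine receptor, read 310 and 356 against 231 and 220 (difference -0.56, SE 0.09, adjusted p = 0.0194). Kcna6, a potassium channel gene, differed by -0.62, and the growth factor gene Igf1 by -0.50.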
